A study of Mus musculus with 6 samples.

Results

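The Polycomb repressive complex 2 (PRC2) genes described here were 9 mouse genes, taken by symbol as named subunits of the complex. They were Ezh1, Ezh2, Eed, Suz12, Rbbp4, Rbbp7, Jarid2, Mtf2 and Phf19, and all 9 were found among the 14162 genes of the table. RNA was sequenced from mouse lungs, with no sorting of cells named, at E12.5, in the middle of gestation, in 3 libraries labelled ShhCre-Dnmt1KO (here Dnmt1KO) and 3 libraries of wild-type littermates (here WT). The Dnmt1KO animals lose Dnmt1, which encodes the maintenance DNA methyltransferase, in cells that express Cre driven by Shh. Shh is expressed in the endoderm that lines the airways, so the other cells of the lung keep the gene. The labels name Cre for the Dnmt1KO animals only and name no embryo or pool of embryos for a library. The p-values therefore measure the spread between these libraries. It may be technical, except that Y chromosome reads (below) set Dnmt1KO replicate 1 apart from the others.

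PRC2 places the repressive methyl mark of the Polycomb system on histone H3. Ezh1 and Ezh2 encode its alternative catalytic subunits, Eed and Suz12 the core partners without which neither works, and Rbbp4 and Rbbp7 closely related histone-binding subunits. Jarid2, Mtf2 and Phf19 encode accessory subunits that help the complex find CpG-rich DNA. In the embryonic mouse lung, Ezh2 in the endoderm is known to keep the basal cell programme with Trp63 silent. The comparison of Dnmt1KO with WT asks whether the expression of these genes differed with the loss of Dnmt1. Because only the Dnmt1KO labels name Cre, effects of Cre and of that loss cannot be told apart.

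The level of none of the 9 genes differed between Dnmt1KO and WT beyond the spread between libraries. The fold changes, Dnmt1KO over WT on the log2 scale, ran from -0.049 for Rbbp7 to 0.037 for Suz12, with 6 negative and 3 positive. Limma called 0 of the 9 at an adjusted p under 0.05, against 0.29% of all 14162 genes (0.282% higher and 0.00706% lower). At an unadjusted p under 0.05 it also gave 0 of the 9, against 4.52% of all genes (2.92% higher and 1.6% lower), and voom on recovered reads called 0 as well. The Dnmt1KO and WT values of all 9 genes overlapped, and 8.78% of the genes in the table had no overlap. With shares this low, counts of 0 among 9 genes do not set them apart from other genes. The median absolute log2 fold change of the 9 was 0.030, against 0.079 over all genes and 0.063 over the 10622 genes of the upper 75% by mean level.

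Lung markers were present in every library, and markers of other tissues varied between libraries. All 16 genes of a lung epithelium list (among them Nkx2-1, Epcam and Sox9) and all 12 of a lung mesenchyme list (among them Tbx4 and Foxf1) had reads in all 6 libraries. Summed epithelial levels were 334 to 489 in Dnmt1KO and 385 to 476 in WT, in RPKM (reads scaled by exon length and library total). The epithelial genes had 6 positive and 10 negative fold changes (median -0.13), with 8 of each without Dnmt1KO replicate 1 (-0.016). The mesenchymal genes had 7 positive and 5 negative (median 0.042), with 5 positive and 7 negative without Dnmt1KO replicate 2 (-0.052). None of these 28 passed the test, which 0.29% of all genes did. The smallest p among these 28 were those of Shh (-0.98 ± 0.22), Foxa1 (-1.51 ± 0.32), Foxf1 (-0.38 ± 0.09) and Esrp2 (-0.53 ± 0.13), named after their values were seen. Their limma adjusted p were 0.213 to 0.306, with all 3 Dnmt1KO values below WT in each. Groups without overlap were found for 3 of the 16 epithelial and 1 of the 12 mesenchymal genes, against 8.78% of all genes. Foxa1 passed without Dnmt1KO replicate 3 (adjusted p = 0.000667). Cardiac muscle genes summed to 22.0, 276 and 67.8 in Dnmt1KO replicates 1, 2 and 3, against 31.9 to 39.2 in WT. Erythroid genes summed to 2640 to 4349 in Dnmt1KO and 1905 to 2765 in WT. All 13 erythroid genes had a positive fold change (median 0.52, or 0.26 without Dnmt1KO replicate 3), and none passed. Without WT replicate 1, 12 were positive and 1 negative (0.46). Dnmt1KO replicate 1 had 3 reads over Ddx3y, Eif2s3y, Kdm5d and Uty of the Y chromosome, against 4155 to 5207 in each of the other 5 libraries. That library is thus no technical repeat of the others. Sex was not balanced between the groups, and its part in the differences was not tested. Dnmt1 itself had log2 values of 15.57, 15.40 and 15.31 in Dnmt1KO and 15.72, 15.74 and 15.76 in WT, 80.7% of the WT level, which did not pass the test (limma adjusted p = 0.507). In bulk samples like these, fewer cells of a type and less RNA per cell cannot be told apart. Nor can effects of Cre driven by Shh, for Shh itself among others, be told apart from those of losing Dnmt1. Read totals per library were 18192629 to 21046831 in Dnmt1KO and 20599736 to 25597662 in WT.

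The promoters of the core genes are shown because CpG dinucleotides, written CG on each strand, are the sites at which Dnmt1 can maintain methylation. RefSeq windows of 300 bases, with 250 before and 50 after the start of the gene, were matched for all 9 genes by symbol (11 windows, GRCm38.p6). The 3 windows below lie well above (Ezh2), slightly above (Ezh1) and slightly below (Eed) the median number of CG dinucleotides, which are in capitals.
Ezh2, chr6:47594981-47595280, minus strand: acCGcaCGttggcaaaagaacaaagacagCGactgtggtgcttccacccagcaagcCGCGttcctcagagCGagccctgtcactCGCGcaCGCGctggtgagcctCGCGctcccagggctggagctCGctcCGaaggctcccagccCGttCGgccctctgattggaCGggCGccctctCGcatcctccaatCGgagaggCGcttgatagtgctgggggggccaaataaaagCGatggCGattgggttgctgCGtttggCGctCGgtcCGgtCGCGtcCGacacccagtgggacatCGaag
Ezh1, chr11:101226414-101226713, minus strand: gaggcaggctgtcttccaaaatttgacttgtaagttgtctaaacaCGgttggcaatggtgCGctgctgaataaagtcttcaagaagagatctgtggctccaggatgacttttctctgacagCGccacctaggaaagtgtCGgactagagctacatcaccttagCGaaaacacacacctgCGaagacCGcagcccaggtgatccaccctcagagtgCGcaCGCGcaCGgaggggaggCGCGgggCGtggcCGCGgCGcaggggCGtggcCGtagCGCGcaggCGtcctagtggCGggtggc
Eed, chr7:89980927-89981226, minus strand: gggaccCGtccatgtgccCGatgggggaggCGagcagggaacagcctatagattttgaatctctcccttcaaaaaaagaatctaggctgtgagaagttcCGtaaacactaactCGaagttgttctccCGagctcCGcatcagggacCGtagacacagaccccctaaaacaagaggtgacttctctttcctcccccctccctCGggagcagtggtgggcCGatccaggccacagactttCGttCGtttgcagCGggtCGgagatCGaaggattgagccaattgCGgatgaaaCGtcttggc

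Most of these promoters were rich in CG. Ezh2 had 31 CG dinucleotides in its window, Ezh1 23 and Eed 17. The other windows held 41 for Suz12, 39 for Rbbp4, 38 for Rbbp7 and Phf19, 30 and 2 for the 2 starts of Mtf2, and 24 and 23 for the 2 starts of Jarid2. The median over the 13865 windows of genes in the table was 20, with quartiles of 10 and 28. No methylation was measured in these samples, so the CG counts do not show which sites were methylated. The E2F-type words TTTGGCGC, TTTCGCGC, TTTCCCGC and TTTGCCGC were searched on both strands, since E2F factors are known to drive Ezh2 in dividing cells. A match was found in the windows of Ezh2 (TTTGGCGC), Suz12 (TTTCCCGC) and Phf19 (GCGGGAAA, the reverse complement of TTTCCCGC), and 3.78% of the windows of genes in the table hold one.

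Ezh2, the catalytic subunit that prevails in dividing cells, was the third most abundant of the 9 per exon length. Its log2 values were 14.34, 14.22 and 14.39 in Dnmt1KO replicates 1, 2 and 3, against 14.30, 14.43 and 14.28 in WT replicates 1, 2 and 3. The lowest value was in a Dnmt1KO library and the highest in a WT library, with the rest intermixed. The means were 14.32 ± 0.09 in Dnmt1KO and 14.34 ± 0.08 in WT (± SD of 3 libraries each), a level of 98.7% of WT. The log2 fold change was -0.019 ± 0.084 (SE, limma adjusted p = 1.0), with a 95% interval of -0.21 to 0.17. On a linear scale the interval spans 0.864-fold to 1.13-fold.

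Ezh1, the catalytic subunit known for its place in non-dividing cells, stood far below Ezh2. Its log2 values were 11.86, 11.66 and 11.70 in Dnmt1KO and 11.85, 11.65 and 11.84 in WT. Both groups held values near 11.65 and near 11.85, so they overlapped almost wholly (-0.042 ± 0.101 SE, 95% interval -0.27 to 0.19). Reads per library ran from 640 to 686 in Dnmt1KO and from 637 to 923 in WT.

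The balance between the catalytic subunits was measured within each library, where the scaling of the library cancels. Ezh1 minus Ezh2 on the log2 scale was -2.49, -2.55 and -2.70 in Dnmt1KO and -2.44, -2.78 and -2.44 in WT, not corrected for length. The Dnmt1KO values all lay inside the WT range. The difference of the means was -0.023 (p = 0.8, two-sided, by exact permutation of the 6 libraries), where the smallest p that 3 libraries against 3 allow is 0.1. Per exon length, Ezh1 made up 13.1% ± 0.8 of the sum of Ezh1 and Ezh2 in Dnmt1KO and 13.3% ± 1.5 in WT (± SD of 3 libraries each).

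**Figure D1:**
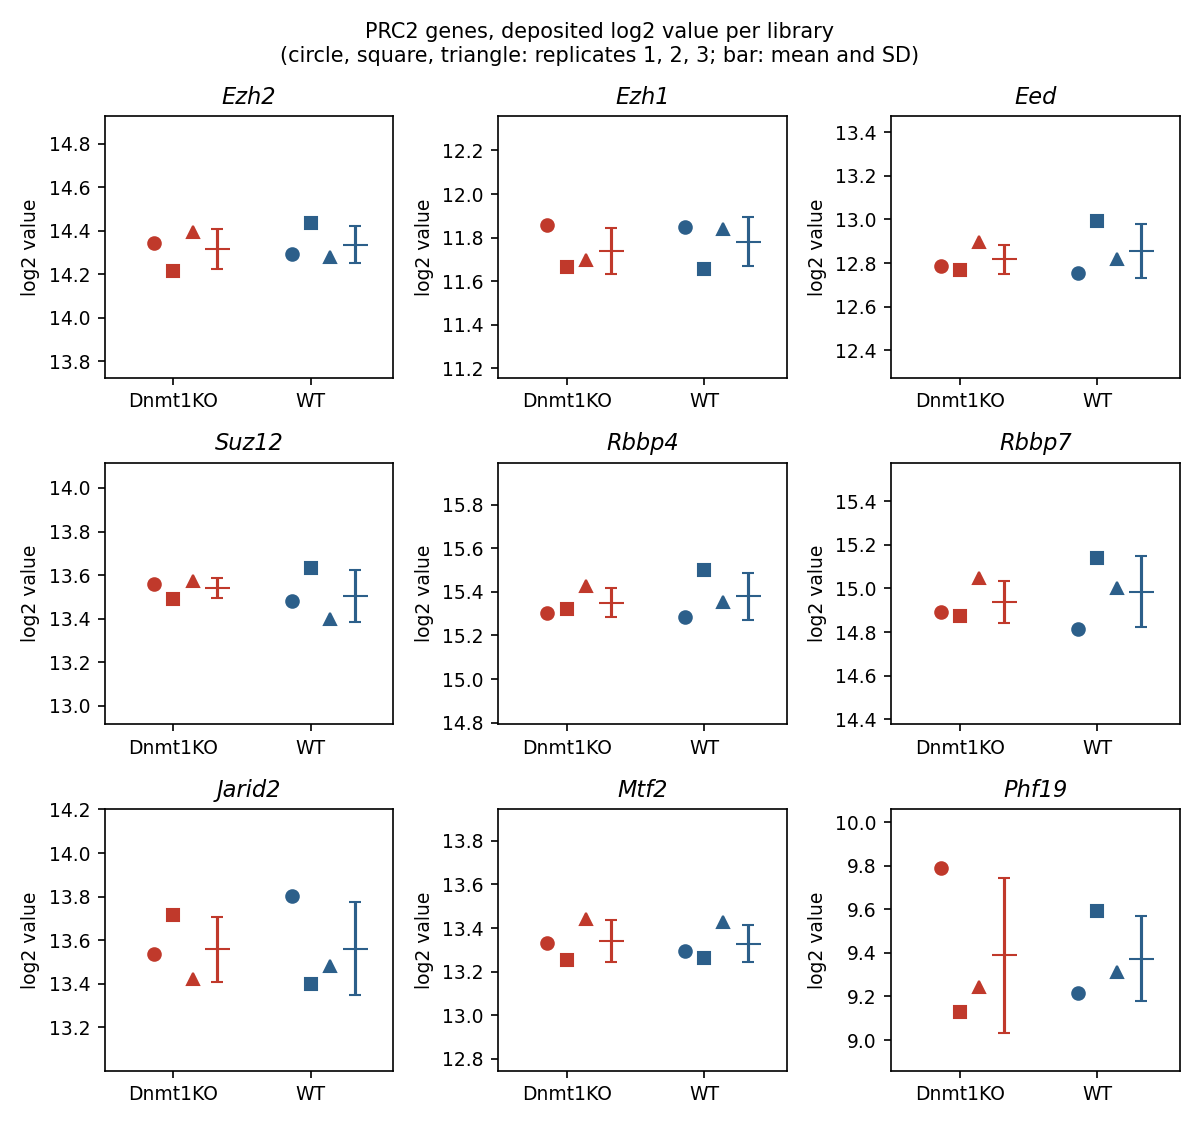
Deposited log2 value (vertical axis, each panel spanning the same width) of the 9 PRC2 genes in the Dnmt1KO (red) and WT (blue) libraries; each point is a library and the bar gives the mean and SD of 3. In every panel the values of the groups overlap, and Phf19 has the widest spread.

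Eed, which binds the methyl mark and activates the enzyme, had log2 values of 12.79, 12.77 and 12.89 in Dnmt1KO and 12.76, 12.99 and 12.82 in WT. Its lowest and highest values were both in WT libraries. The fold change was -0.038 ± 0.091 (SE), with a 95% interval of -0.25 to 0.17.

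Suz12, which holds the core complex together, had log2 values of 13.56, 13.49 and 13.57 in Dnmt1KO and 13.48, 13.63 and 13.40 in WT. The 3 Dnmt1KO libraries all lay inside the WT range. Its fold change of 0.037 ± 0.086 (SE) had a 95% interval of -0.16 to 0.23.

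The histone-binding subunits Rbbp4 and Rbbp7 also serve in other complexes, among them NuRD, Sin3 and the chromatin assembly factor CAF1. Rbbp4 had log2 values of 15.30, 15.32 and 15.43 in Dnmt1KO and 15.29, 15.50 and 15.35 in WT (-0.030 ± 0.085 SE, 95% interval -0.22 to 0.16). Rbbp7 stood at 103, 101 and 114 RPKM in Dnmt1KO and 96.7, 119 and 111 RPKM in WT (log2 fold change -0.049 ± 0.102 SE, 95% interval -0.28 to 0.18). For both genes WT replicate 1 was lowest and WT replicate 2 highest, with the Dnmt1KO libraries between them. Rbbp7 lies on the X chromosome, and Dnmt1KO replicate 1, the library with 3 reads over the Y genes, was not its extreme. Leaving out each library in turn gave Rbbp7 fold changes of -0.14 to 0.028, none of which passed. Per exon length, Rbbp7 made up 69.3% ± 0.5 of the pair in Dnmt1KO and 69.6% ± 1.0 in WT (± SD of 3 libraries each). A processed pseudogene (Gm6382) matches 942 bases of the Rbbp7 transcript at 97.1% identity, so the reads of that stretch are uncertain.

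The accessory subunit Jarid2, a Jumonji family protein without demethylase activity that recruits the complex, varied more between libraries than the core genes. Its log2 values were 13.54, 13.71 and 13.42 in Dnmt1KO and 13.80, 13.40 and 13.48 in WT. The WT libraries held both its highest and its lowest value. The fold change was -0.0042 ± 0.1241 (SE), with a 95% interval of -0.29 to 0.28.

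Mtf2, a Polycomb-like protein that binds CpG-rich DNA, had log2 values of 13.33, 13.25 and 13.44 in Dnmt1KO and 13.29, 13.26 and 13.43 in WT, nearly the same 3 levels in each group. Its fold change was 0.013 ± 0.086 (SE, 95% interval -0.18 to 0.21). Phf19, the Polycomb-like relative of Mtf2, was the scarcest, with read counts of 158, 110 and 125 in Dnmt1KO against 148, 152 and 144 in WT. Its log2 values were 9.79, 9.13 and 9.25 in Dnmt1KO and 9.21, 9.59 and 9.31 in WT. Dnmt1KO replicate 1 stood highest and the other Dnmt1KO libraries were among the lower values. Its fold change of 0.015 ± 0.216 (SE) had the widest interval, -0.48 to 0.51, and was -0.19 without Dnmt1KO replicate 1.

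These intervals set how large a change could have gone unseen in lung RNA. For 8 of the 9 genes the 95% interval lay wholly within 0.32 of 0 on the log2 scale, as it did for 36.2% of all genes, with Phf19 as the exception. The share over all genes includes many scarcer ones, as these 8 genes stood at percentile 50.4 (Ezh1) to 97.9 (Rbbp4) by mean level. The number of members inside was 6 when any library other than Dnmt1KO replicate 2 was left out, and 7 without that one. It was also 6 without trend and robust estimation, and 7 with sample weights. The intervals speak of RNA from all cells of the lung, and the values of the Cre lineage alone were not measured.

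**Figure D2:**
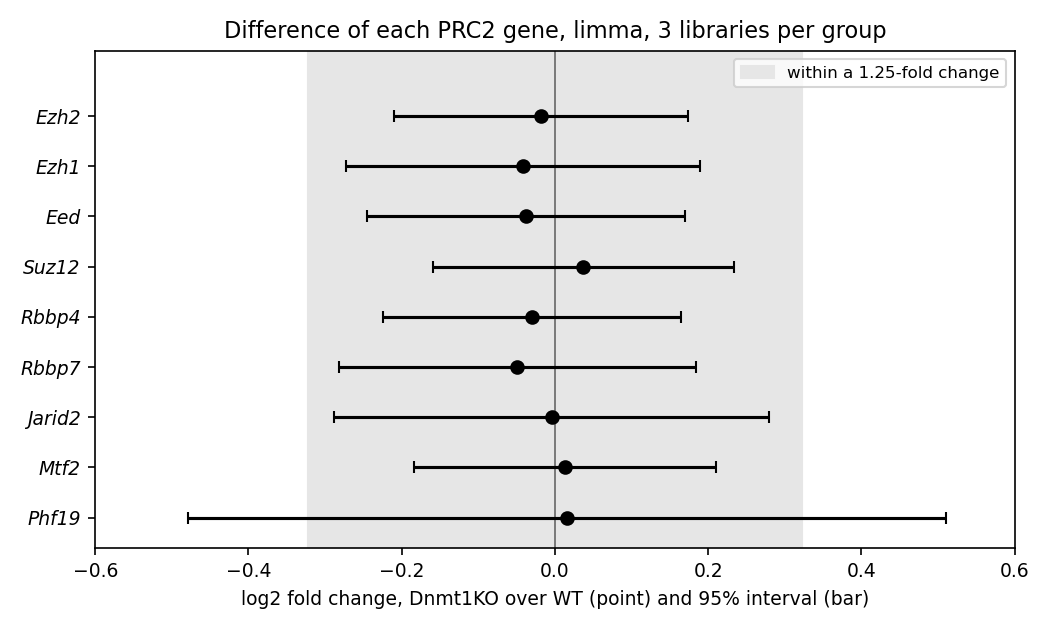
Log2 fold change of each PRC2 gene, Dnmt1KO over WT (points), with limma's 95% interval (bars); the grey band marks changes of less than 0.32 on the log2 scale in either direction. The intervals of 8 genes lie inside the band, and that of Phf19 reaches from -0.48 to 0.51.

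Between genes the levels differed far more than between genotypes. In RPKM, Rbbp7 led with 106 ± 7 in Dnmt1KO and 109 ± 11 in WT (± SD of 3 libraries each). Rbbp4 followed at 46.9 ± 2.2 in Dnmt1KO and 47.5 ± 3.1 in WT, then Ezh2 at 30.1 ± 1.9 in Dnmt1KO and 30.1 ± 1.4 in WT, and Suz12 at 23.7 ± 0.7 in Dnmt1KO and 22.9 ± 1.7 in WT. Eed (18.5 ± 0.9 in Dnmt1KO and 18.8 ± 1.4 in WT) and Mtf2 (17.9 ± 1.2 in Dnmt1KO and 17.6 ± 1.2 in WT) overlapped over the 6 libraries. No other neighbours in this order overlapped. Below them came Jarid2 at 12.2 ± 1.2 in Dnmt1KO and 12.2 ± 1.9 in WT, Ezh1 at 4.52 ± 0.34 in Dnmt1KO and 4.61 ± 0.39 in WT, and Phf19 at 1.33 ± 0.34 in Dnmt1KO and 1.28 ± 0.16 in WT. With the length of the longest protein-coding transcript, a choice made after the values were seen, Eed came above Suz12, and Suz12, Mtf2 and Jarid2 then overlapped in turn. The ratio of Suz12 to Eed in WT was 1.21 with exon length and 0.741 with transcript length.

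**Figure D3:**
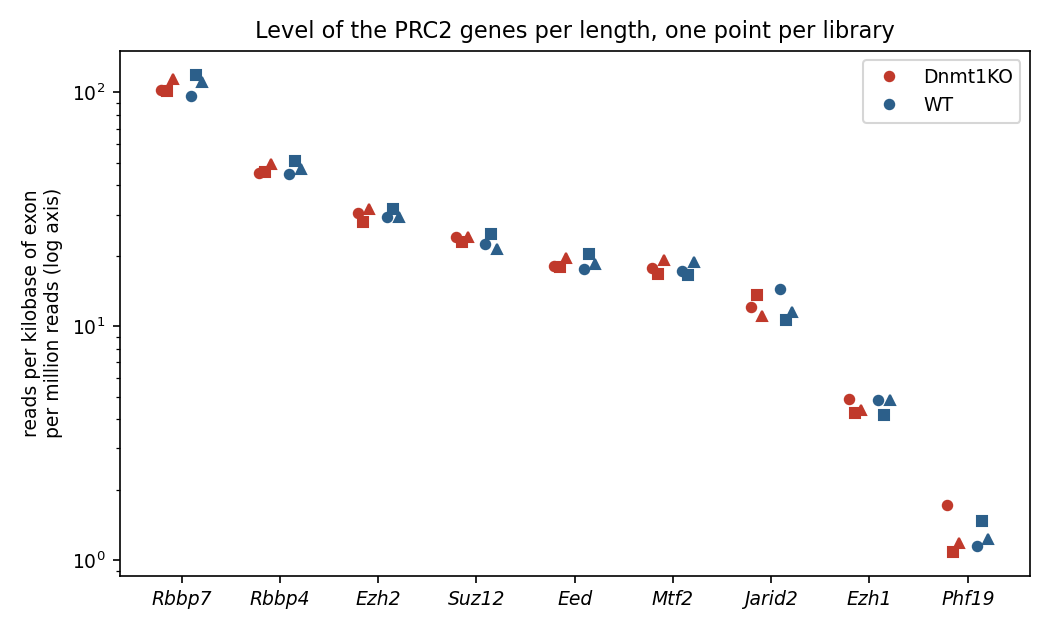
Level of each PRC2 gene per exon length (log axis, RPKM), with 1 point per library in red for Dnmt1KO and blue for WT. The genes span from about 1.08 for Phf19 to 119 for Rbbp7, while the points of the genotypes lie on each other within each gene.

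Part of the spread between libraries was shared by 5 of the 9 genes. Ezh2, Eed, Suz12, Rbbp4 and Rbbp7 were all highest in WT replicate 2, 0.11 to 0.18 above their own means, and all 5 were also above their means in Dnmt1KO replicate 3 (0.049 to 0.086). Jarid2 ran the other way, at -0.14 around its mean in Dnmt1KO replicate 3, -0.16 in WT replicate 2 and 0.24 in WT replicate 1. The within-group SD of these genes was 2.67 times (Eed) to 7.57 times (Rbbp7) the SD that counting alone gives. As a description over 6 libraries, Pearson's r was 0.99 between Eed and Rbbp4, 0.96 between Rbbp4 and Rbbp7, 0.84 between Ezh2 and Eed, and -0.91 between Jarid2 and Rbbp7. These points share the scaling factor of each library.

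The median of 27 cell cycle genes, such as Mki67, Pcna and the Mcm helicase genes, stood at -0.022, -0.13 and 0.053 around its mean in Dnmt1KO replicates 1, 2 and 3 and at -0.10, 0.11 and 0.093 in WT replicates 1, 2 and 3. Its r over the 6 libraries, again a description, was 0.91 with Rbbp7, 0.80 with Eed, 0.78 with Rbbp4, 0.71 with Ezh2, 0.50 with Mtf2, 0.39 with Phf19, 0.26 with Suz12, -0.14 with Ezh1 and -0.92 with Jarid2. The part of the cell cycle in the spread of these genes was not tested. Of the 27 genes, 20 had a negative and 7 a positive fold change (median -0.062), and none passed, against 0.29% of all genes. Without Dnmt1KO replicate 2 the balance was 13 negative and 14 positive (median 0.0066), and without WT replicate 1 it was 25 negative and 2 positive (-0.12). The genes nearest to Ezh2 in pattern, among 10557 named genes of the upper 75% by mean level, were Ska1 (r = 0.99), Entpd6 (0.99), Pex16 (0.98), Slc7a6os (0.97) and Incenp (0.97), over 6 libraries. Ska1 and Incenp encode proteins of chromosome segregation, but no function shared by all 5 is read from the list. The list holds the highest r among 10557 genes and is a description of likeness over few points.

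**Figure D4:**
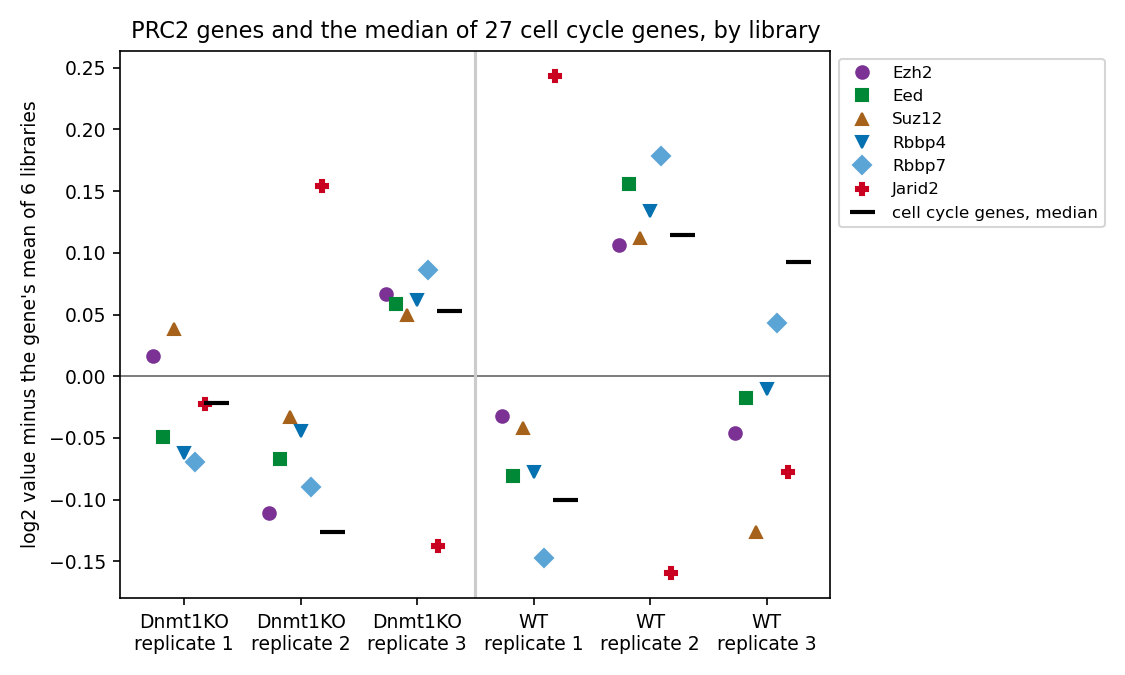
Log2 value of 6 PRC2 genes minus each gene's own mean over the 6 libraries (vertical axis), with the median of 27 cell cycle genes as a black bar, for Dnmt1KO libraries on the left and WT libraries on the right. In WT replicate 2 and Dnmt1KO replicate 3 the core genes lie above 0 and Jarid2 below.

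Other genes of the Polycomb system did not pass the test, and some differed more in size than the 9 subunit genes. Over all genes 0.29% passed, so counts of 0 on this list and those below do not set the lists apart. Of 6 further PRC2 accessory genes, 5 were measured and none passed. Lcorl, a relative of the PRC2-binding gene Lcor, had the smallest p, with log2 values of 12.16, 11.88 and 11.85 in Dnmt1KO and 11.67, 11.66 and 11.74 in WT (0.27 ± 0.11 SE, limma adjusted p = 0.966). All 3 Dnmt1KO values of Lcorl lay above WT. Phf1, the third Polycomb-like gene, was at 0.22 ± 0.12, Aebp2, the usual partner of Jarid2, at -0.088 ± 0.087, and Lcor at 0.017 ± 0.098 (SE, adjusted p = 1.0 for all 3). Per exon length, Jarid2 and Aebp2 made up 44.7% ± 2.8 of the accessory sum with Phf1, Mtf2 and Phf19 in Dnmt1KO and 46.8% ± 1.9 in WT (± SD of 3 libraries each).

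Of 26 genes of Polycomb repressive complex 1, the ubiquitin ligase that works beside PRC2, none passed in either direction (18 negative, 8 positive, median log2 fold change -0.035, against -5.88e-05 over all genes). Without Dnmt1KO replicate 3 (median 0.0019) or without WT replicate 1 (-0.00081) 13 were negative and 13 positive, and the median was -0.071 without WT replicate 3. Cbx7, a chromodomain reader of the Polycomb mark, had the smallest p. Libraries of Dnmt1KO lungs had 232, 126 and 279 of its reads, and those of WT lungs 132, 96 and 102. The log2 difference was 1.09 ± 0.28 (SE, limma adjusted p = 0.378). All 3 Dnmt1KO log2 values of Cbx7 (10.34, 9.32 and 10.40) lay above WT (9.05, 8.93 and 8.82), and replicate 2 stood near WT. Without Dnmt1KO replicate 2 it passed, at 1.44 (adjusted p = 0.0334). It did not pass without any other library (adjusted p 0.448 to 1.0). Bmi1 (0.22 ± 0.09), Cbx2 (-0.22 ± 0.10) and Phc1 (-0.14 ± 0.07) followed, each with adjusted p = 1.0.

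None of 19 genes for erasers of Polycomb marks and for the opposing trithorax proteins passed, against 0.29% of all genes (16 negative, 3 positive, median -0.050). That balance turned on single libraries, with 7 negative and 12 positive (median 0.022) without Dnmt1KO replicate 3 and 8 negative and 11 positive (0.012) without WT replicate 1. The named ones, Nsd2 (-0.16 ± 0.07), Bap1 (-0.11 ± 0.07), Kmt2b (-0.080 ± 0.104) and Kdm6a (0.17 ± 0.21), each had adjusted p = 1.0 by limma. Kdm6a, an X-linked demethylase of the PRC2 mark that is known to escape X inactivation, was highest in Dnmt1KO replicate 1, at 10.5 RPKM against 5.41 to 6.79 RPKM in the other 5 libraries. Of 28 genes of complexes that share Rbbp4 and Rbbp7, none passed (19 negative, 9 positive, median -0.013). With scaling to read totals 13 were negative and 15 positive (0.0024), and the median was -0.048 without Dnmt1KO replicate 3. Mbd3 of NuRD (-0.21 ± 0.10), Gatad2a (-0.12 ± 0.09), Chaf1a (-0.10 ± 0.08) and Chaf1b (-0.16 ± 0.13) had the smallest p.

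Genes known as PRC2 targets in mouse cells were described apart. Of 119 such genes on 3 lists, 59 were in the table and the other 60 were not analysed here. None of the 59 passed the test, 45 had a positive and 14 a negative fold change, and 7 had an unadjusted p under 0.05 in the higher direction, where 2.92% of all genes did. The balance was 36 positive and 23 negative with quantile normalization, and 37 positive and 22 negative without Dnmt1KO replicate 2. The median fold change over all genes was -5.88e-05. Without the lowest 25% of genes by mean, 26 of the 59 remained, 19 positive and 7 negative. The lists thus lean to scarce genes, and the share over all genes is no like background. The table holds no gene with fewer than 60 reads over the 6 libraries, so a gene scarce in both groups could not enter. A gene scarce in WT could enter through its Dnmt1KO reads, or the reverse. Hoxb9, Lhx2, Pou4f1 and Trp63 had 23, 28, 36 and 50 reads over the WT libraries. The count is no measure of the lists as a whole.

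Of 21 measured Hox genes, which set position along the body axis, 16 had a positive and 5 a negative fold change (median 0.12, or 0.060 without Dnmt1KO replicate 2 and 0.21 without WT replicate 2). Hoxb9 stood out, with read counts of 101, 67 and 52 in Dnmt1KO and of 6, 14 and 3 in WT. The ratio of scaled reads was 11.1, with an exact Clopper-Pearson 95% counting interval of 7.19 to 17.8 that covers counting error only. With 23 reads over the WT libraries, Hoxb9 could reach the lowest total of the table, 60, only through its Dnmt1KO reads. Its ratio is therefore a description and no independent support for a difference. The log2 fold change of Hoxb9 was 3.57 ± 0.60 (SE), and it did not pass (limma adjusted p = 0.0702). It passed without WT replicate 2 (adjusted p = 0.0202, against 0.0747 to 0.358 without any other library) and with sample weights (0.0212). Hoxb1 (0.57 ± 0.26) and Hoxa2 (0.25 ± 0.13) came next, both with adjusted p = 1.0.

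Of 11 measured targets with roles in growth, imprinting and airway identity, 7 had a positive and 4 a negative fold change. Cdkn1a, the cell cycle inhibitor p21, which p53 also drives, was at 2.69 ± 0.49 (SE, limma adjusted p = 0.128), with log2 values of 12.48, 11.91 and 10.34 in Dnmt1KO and 8.90, 8.99 and 8.76 in WT. It passed without Dnmt1KO replicate 3 (adjusted p = 0.000667) and with sample weights (0.0323). Trp63, the basal cell factor, had read counts of 27, 118 and 48 in Dnmt1KO and of 6, 19 and 25 in WT (2.08 ± 0.67, adjusted p = 0.691). All 3 Dnmt1KO log2 values of Trp63 were above WT, but 1 of them (7.26) stood close to the highest WT value (6.81). With 50 reads over the WT libraries, Trp63 could reach the lowest total of the table, 60, only through its Dnmt1KO reads. Its separation is therefore a description and no independent support for a difference. Bmp4 (0.34 ± 0.12, adjusted p = 0.850) and Wnt7b (-0.29 ± 0.16, adjusted p = 1.0) did not pass. The median of the 11 was 0.30, and it was -0.099 without Dnmt1KO replicate 2. Leaving out WT replicate 2 or 3 gave 0.19 or 0.14, and 0.18 came with quantile normalization. The 8 genes left without the lowest 25% had a median of 0.014.

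Of 27 other developmental regulators, 22 had a positive and 5 a negative fold change, with a median of 0.38 that lay between 0.081 and 0.84 on leaving out single libraries (0.081 without WT replicate 2, 0.84 without WT replicate 1, 0.17 without Dnmt1KO replicate 2, 0.12 without WT replicate 3). Quantile normalization gave 17 positive and 10 negative (median 0.14), and 6 of the 27 genes (0.13) remained without the lowest 25% of genes. The neural genes Pou4f1 (1.66 ± 0.36, limma adjusted p = 0.198), Lhx2 (1.64 ± 0.48, 0.533) and Lhx3 (0.78 ± 0.23, 0.559) had the smallest p, with the Dnmt1KO values above WT in each. With 36 and 28 reads over the WT libraries, Pou4f1 and Lhx2 could reach the lowest total of the table, 60, only through their Dnmt1KO reads. Their p and separation are therefore a description and no independent support for a difference. Nkx2-5, a heart factor, had read counts of 5, 64 and 29 in Dnmt1KO and of 30, 1 and 1 in WT, and did not pass (adjusted p = 1.0). The median of the list in single libraries stood 0.96 above the WT mean in Dnmt1KO replicate 2 and 0.79 above it in WT replicate 1. Dnmt1KO replicate 2 was the library with the summed cardiac level of 276. The part of cardiac tissue in this list, and of the higher erythroid sums in Dnmt1KO, was not tested.

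**Figure D5:**
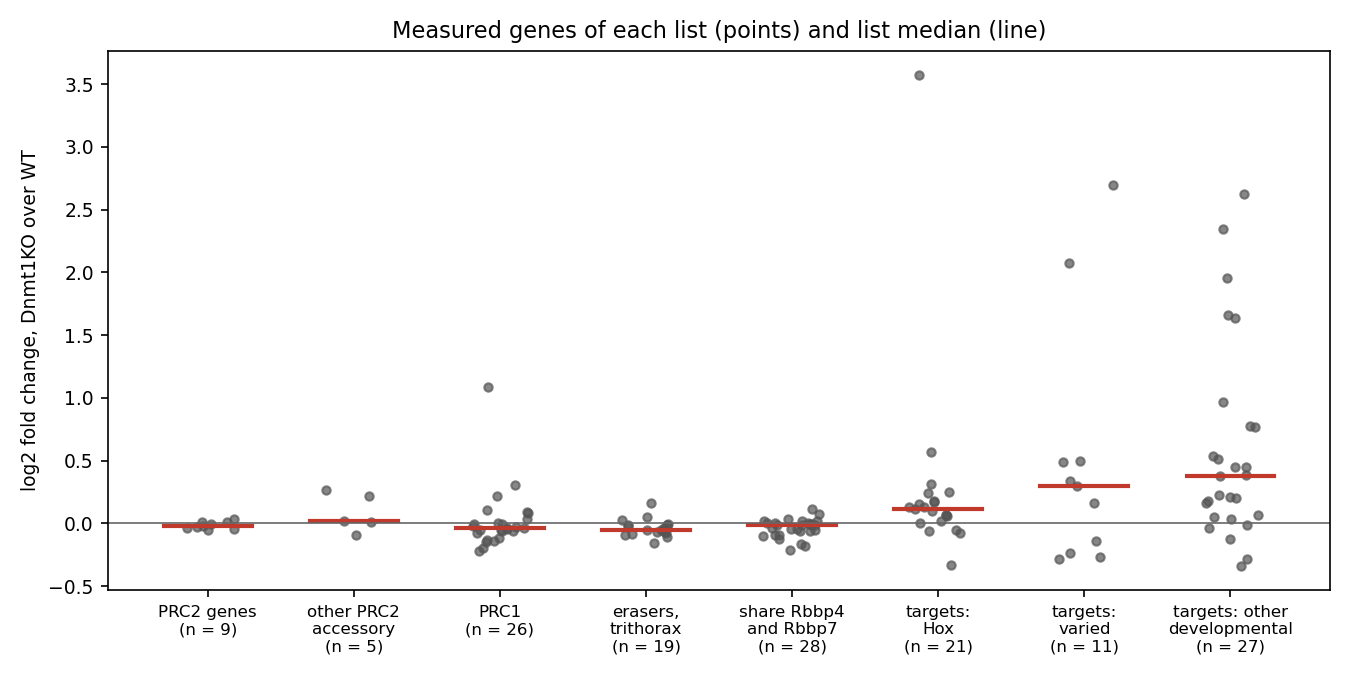
Log2 fold change, Dnmt1KO over WT (vertical axis), of each measured gene (points) on 8 lists, with the list median as a red line. The PRC2 genes lie between -0.049 and 0.037, and Cbx7 in PRC1 and Hoxb9 among the Hox genes lie far above the medians of their lists.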

How the data were processed

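Lungs were measured by RNA-seq in 3 Dnmt1KO and 3 WT libraries, grouped by title. The authors deposited 1 table per library with a log2 value per Ensembl identifier, called only a signal per the file headers and made from scaled read counts, as the values themselves show. The submitters' processing notes name STAR, limma and the build mm9, without roles. For the counter, annotation, gene filter and scaling, the entry is: not given in the sources used here. Raising 2 to each value gave whole reads plus 0.5, times a constant of the library, for 100% of genes within 1e-06 reads. Those reads give the totals and the levels per length.

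Symbols, chromosomes and union exon lengths came from GENCODE's GRCm38 annotation by identifier (13967 of 14162 named). The deposited values of all genes were fitted with limma 3.58.1 (R 4.3.3), with genotype as the only term, trended and robust empirical Bayes moderation and Benjamini-Hochberg adjustment (threshold 0.05). The fit was tested on simulated data. Intervals are limma's 95% intervals, unadjusted. Near copies were sought with BLAST 2.17.0 among annotated transcripts (95% identity over 200 bases). Annotated exons on the opposite strand overlap 18.0% of the exonic bases of Rbbp4 and 0% to 6.93% of those of the other members, and whether counting used strand is not given.

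The members and lists were chosen with earlier results of these data known. Named were all members, up to 4 genes per chromatin or target list with the smallest p, and the 5 genes most like Ezh2 by Pearson's r. A gene that this rule names is not reported here. The alternatives comprised a replicate block, removal of the lowest 25% of genes by mean, quantile normalization, median centring, scaling to read totals, voom on recovered reads, no trend or robust estimation, sample weights and leaving out each library.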

Additional observations from a re-analysis of the deposited data

How the results depend on the processing

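None of the 9 PRC2 genes passed under any of the 14 alternatives, Phf19 being absent where the lowest 25% of genes were left out. Fold changes this near 0 changed sign easily. Leaving out single libraries gave -0.11 to -0.0039 for Ezh1, -0.057 to 0.032 for Ezh2, -0.088 to 0.030 for Eed, -0.017 to 0.10 for Suz12, -0.085 to 0.12 for Jarid2, -0.076 to 0.029 for Rbbp4, -0.14 to 0.028 for Rbbp7, -0.037 to 0.061 for Mtf2 and -0.19 to 0.15 for Phf19. Quantile normalization gave 0.015 for Ezh2, 0.027 for Jarid2 and -0.073 for Phf19. Jarid2 was 0.011 with scaling to read totals and 0.0089 with voom. Sample weights gave 0.091 for Jarid2, -0.055 for Mtf2 and -0.027 for Phf19. Ezh1 minus Ezh2 lay between -0.14 and 0.036 on leaving out single libraries. The ratio of Suz12 to Eed became 0.741 with transcript length, by the construction of that length.

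Over all genes, 26 were called higher and 0 lower with the replicate block, 0 and 0 without the lowest 25% (where 309 of 10622 genes had an unadjusted p under 0.05), and 24 higher with voom. None was called lower without trend and robust estimation, and 12 with sample weights. Leaving out each library gave 15 to 42 higher and 0 to 17 lower. The related lists had 2 genes called higher with sample weights (Cdkn1a and Hoxb9) and 0 to 1 on leaving out single libraries. The cause of these shifts was not tested. Libraries of the same number did not pair (correlations of their deviations -0.0027, -0.18 and 0.31), and with the replicate block Ezh1 minus Ezh2 kept its value of -0.023 (exact sign-flip p = 0.75). No alternative moved the median of all genes by more than 0.015 on the log2 scale. Read depth limits Phf19 most, at 110 to 158 reads per library.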
